A study of Homo sapiens with 12 samples.

Results

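The genes described here are PARP9, DTX3L, PARP10, PARP11, PARP12, PARP14 and ZC3HAV1, which belong to or work with the mono-ADP-ribosylation branch of the PARP family, with PARP1 as a reference. They were chosen by name, with earlier results of these data known. They are 8 of 40173 gene IDs in the table and 8 of the 12773 tested, whose mean reached 2 TPM in any condition. TPM is a level relative to all transcripts of a library, corrected for transcript length. RNA was sequenced from 624Mel, an established human melanoma cell line with high MITF, in 4 conditions of 3 libraries each. The cells received a control siRNA (siCTRL) or an siRNA against MITF (siMITF), the transcription factor of the melanocytic lineage, by reverse transfection. After 24 h they were left without IFNγ or given 5 ng/mL IFNγ for a further 24 h. The conditions were siCTRL, siCTRL + IFNγ, siMITF and siMITF + IFNγ. All libraries thus came from transfected cells of one line, and the knockdown was transient and partial. MITF itself lay between 158 and 246 TPM in the 6 siCTRL libraries and between 36.0 and 55.1 TPM in the 6 siMITF libraries.

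PARP enzymes take ADP-ribose from NAD and attach it to proteins or nucleic acids. PARP1 builds long chains of it at DNA breaks, whereas PARP10, PARP11, PARP12 and PARP14 attach single units, and several of them are classic interferon-stimulated genes with roles in antiviral defence. PARP9 has little activity alone and works in a complex with DTX3L, a ubiquitin ligase of the Deltex family, and the complex acts in DNA repair and in interferon signalling. ZC3HAV1, also called PARP13 or ZAP, lacks catalytic activity and binds RNA rich in CG dinucleotides, which it directs to decay. IFNγ acts through JAK kinases and STAT factors, which bind GAS elements in DNA, and through IRF factors, which bind ISRE elements.

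The cells matched their label. PMEL, which forms the fibrils of melanosomes, reached 4827 TPM in siCTRL cells, and 11 markers of leukocytes, fibroblasts, keratinocytes and endothelial cells were at 1.24 TPM or less in every library, with CD3E listed at 0 in all of them. TPM of the table summed to between 975336 and 982632 per library, and mitochondrial genes took between 7.42% and 16.9% of it. Read depth is unknown. In bulk RNA, fewer cells with a transcript and less of it per cell cannot be told apart.

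PARP9 and DTX3L lie head to head on chromosome 3 and share a start region. In GRCh38, PARP9 (ENSG00000138496) is annotated on the minus strand at chr3:122527924-122564577 and DTX3L (ENSG00000163840) on the plus strand at chr3:122564338-122575203. The annotations overlap by 240 bases. The libraries were made with a kit that does not mark strand, so strand does not assign reads from those bases to one gene. PARP14 (ENSG00000173193) follows on the plus strand at chr3:122680839-122730840. Of the others, PARP12 (ENSG00000059378) lies at chr7:140023749-140062951, ZC3HAV1 (ENSG00000105939) at chr7:139043515-139132122, PARP11 (ENSG00000111224) at chr12:3791047-3873448 and PARP1 (ENSG00000143799) at chr1:226360210-226408154, all on the minus strand.

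Stretches before the starts are shown where they hold letters of the kind that STAT and IRF factors read. Whether these letters take part in the IFNγ response was not tested. The stretches come from RefSeq (GRCh38.p14), which gave windows for 7 of the 8 genes, with 2 starts for PARP9. PARP10, which rose with IFNγ, had no window and was not searched. Windows of 300 bases, 250 before and 50 after each start, were searched on both strands for an ISRE core (GAAA, any 2 bases, GAAA), a GAS element (TTCNNNGAA), the E-box CACGTG and the M-box core CATGTG, both read by MITF. Capitals mark matches to the ISRE core or GAS, and each sequence reads 5′ to 3′ on the strand given.
PARP9-DTX3L, chr3:122564301-122564347, plus strand: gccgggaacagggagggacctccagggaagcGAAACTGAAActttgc
PARP14, chr3:122680719-122680838, plus strand: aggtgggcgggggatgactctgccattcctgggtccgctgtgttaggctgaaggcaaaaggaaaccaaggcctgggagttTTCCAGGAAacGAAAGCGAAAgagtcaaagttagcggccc
PARP12, chr7:140062952-140063071, minus strand: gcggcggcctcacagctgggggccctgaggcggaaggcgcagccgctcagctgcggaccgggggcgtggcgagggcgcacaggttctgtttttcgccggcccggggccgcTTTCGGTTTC
ZC3HAV1, chr7:139109721-139109840, minus strand: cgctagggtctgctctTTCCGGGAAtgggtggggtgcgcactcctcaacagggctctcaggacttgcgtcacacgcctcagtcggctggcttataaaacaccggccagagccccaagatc

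The same ISRE core run lay in the window of DTX3L and in that of the PARP9 start at 122564300. The DTX3L start at position 122564338 falls within the run, and the PARP9 start at 122564300 lies outside it, with 37 bases between the starts. This RefSeq start of PARP9 lies inside the gene as annotated. The overlap of 240 bases instead uses the annotated PARP9 start at 122564577. The second RefSeq start of PARP9, at 122564784, lies beyond the annotated gene. PARP14 carried a GAS element and, 2 bases after it, an ISRE core. PARP12 had an ISRE core on the other strand that ended at the base before its start. The ZC3HAV1 window had a GAS element but no ISRE core. It belongs to a RefSeq start at 139109720, inside the gene as annotated. The bases before the annotated start at 139132122 were not searched. The windows of PARP11 and PARP1 held none of the searched letters. An M-box core stood in the window of ZC3HAV1 and in that of the second PARP9 start, and no window held the E-box CACGTG. Among 34796 RefSeq windows, 3.57% held the ISRE core, 7.67% the GAS letters, 7.2% the E-box and 11.1% the M-box core. These matches describe the sequence and do not show binding.

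With IFNγ, 6 of the 8 genes rose in siCTRL cells and the same 6 in siMITF cells (limma, adjusted p under 0.05). Over all tested genes, 6.80% rose in siCTRL cells and 7.99% in siMITF cells by the same rule. PARP9, DTX3L, PARP10, PARP12 and PARP14 also passed a log2 change of at least 1, making 5 of 8 genes in each case against 2.42% and 2.72% of all tested genes. These shares are given for scale, since the genes were chosen with earlier results known and several are classic interferon-stimulated genes. The median log2 change of the 7 genes other than PARP1 was 2.51 in siCTRL and 2.02 in siMITF cells, beside -0.07 and -0.10 for all tested genes. The IFNγ effects in siCTRL and in siMITF cells share no libraries, while each shares libraries with the siMITF effects.

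**Figure D1:**
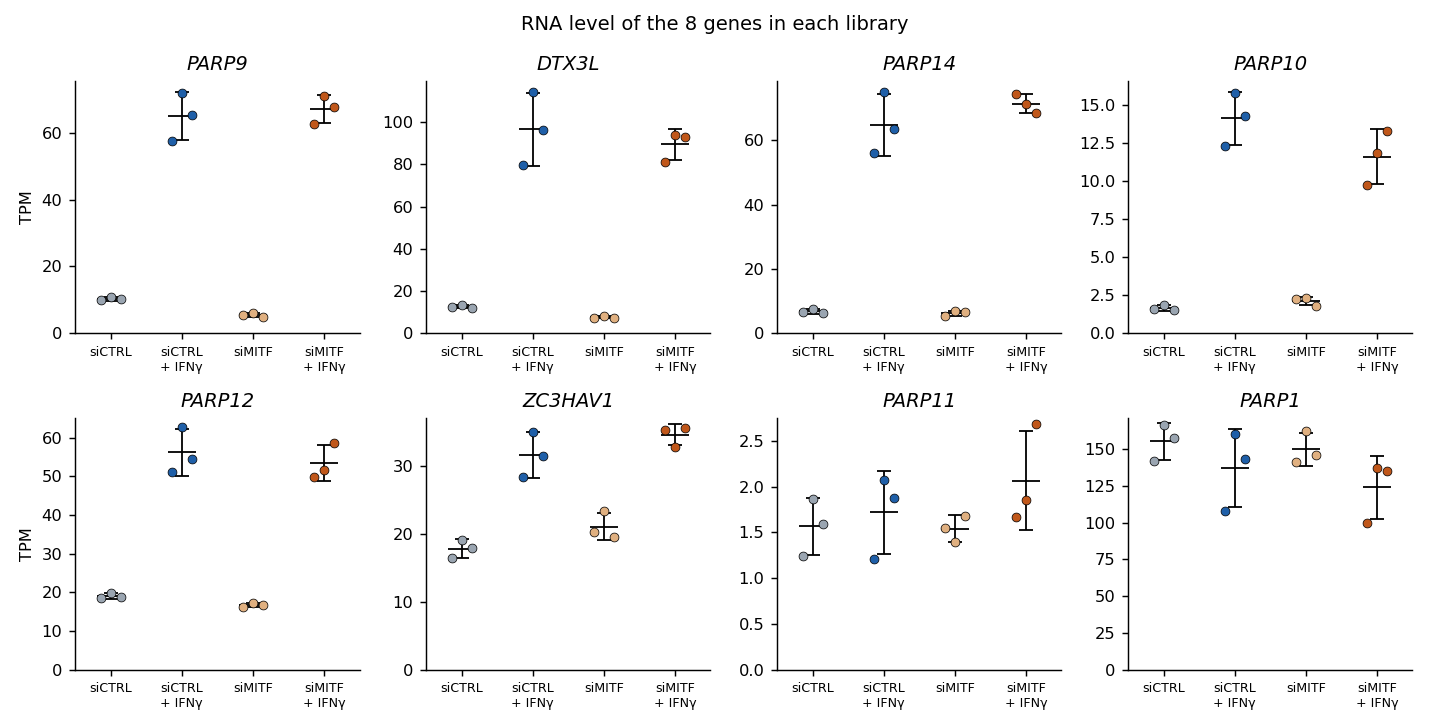
RNA levels of the 8 genes in TPM (vertical axes from 0, each with its own scale) in the 4 conditions. Points are libraries, in the order of replicates 1 to 3, and lines give the mean and SD of 3 libraries. All IFNγ libraries of PARP9, DTX3L, PARP14, PARP10, PARP12 and ZC3HAV1 lie above all libraries without IFNγ, which does not hold for PARP11 or PARP1.

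PARP9 rose from a mean of 10.3 to 65.1 TPM in siCTRL cells and from 5.39 to 67.2 TPM in siMITF cells. Its 3 siCTRL libraries had 9.79, 10.9 and 10.2 TPM, and the 3 siMITF libraries had 5.32, 6.03 and 4.81 TPM. With IFNγ, the siCTRL libraries had 57.7, 72.1 and 65.5 TPM and the siMITF libraries 62.7, 71.1 and 67.8 TPM. The knockdown libraries lay below the controls without IFNγ and overlapped with them under IFNγ. On the log2(TPM + 1) scale the IFNγ effect was 2.54 (SE 0.10, limma adjusted p = 1.3e-09) in siCTRL cells and 3.42 (adjusted p = 5.3e-11) in siMITF cells. As ratios of mean TPM these are 6.31-fold and 12.5-fold.

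DTX3L, the ligase partner of PARP9, followed the same pattern at a slightly higher level. Without IFNγ it had 12.2, 13.4 and 12.05 TPM in the siCTRL libraries and 7.35, 8.15 and 7.32 TPM in the siMITF libraries. With IFNγ the values were 79.6, 114 and 96.5 TPM in siCTRL and 81.2, 93.9 and 93.1 TPM in siMITF cells. Again the groups were apart without IFNγ and overlapped with it. The IFNγ effect on the log2 scale was 2.84 (SE 0.12, limma adjusted p = 1.8e-09) in siCTRL and 3.39 (adjusted p = 2.2e-10) in siMITF cells.

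PARP14, a mono-ADP-ribosyltransferase that also carries ADP-ribose-binding macrodomains, had the largest log2 change of the 8 genes in siCTRL cells. It went from 6.61, 7.61 and 6.12 TPM to 56.0, 75.0 and 63.5 TPM with IFNγ in siCTRL cells, a log2 change of 3.07 (SE 0.12, limma adjusted p = 1.3e-09). In siMITF cells it went from 5.17, 6.83 and 6.42 TPM to 74.6, 71.2 and 68.5 TPM, a log2 change of 3.35 (adjusted p = 3.8e-10). Both knockdown groups overlapped with their controls.

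PARP10 (ENSG00000178685, chr8:143977153-144012772, minus strand), a mono-ADP-ribosyltransferase with ubiquitin-binding motifs, was among the lowest of the 8 genes without IFNγ. Its siCTRL libraries went from 1.56, 1.87 and 1.53 TPM to 12.3, 15.8 and 14.3 TPM after IFNγ. Its siMITF libraries went from 2.22, 2.27 and 1.80 TPM to 9.72, 11.8 and 13.2 TPM. The log2 change with IFNγ was 2.51 (SE 0.13, limma adjusted p = 1.6e-08) in siCTRL and 2.02 (adjusted p = 1.4e-07) in siMITF cells. At these low levels the added 1 TPM shrinks the log2 change, and the ratio of mean TPM was 8.54 and 5.53.

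PARP12, which attaches single ADP-ribose units and blocks several RNA viruses, started higher and rose less. Without IFNγ it had 18.6, 19.8 and 18.8 TPM in siCTRL and 16.3, 17.2 and 16.8 TPM in siMITF libraries. With IFNγ it had 51.1, 62.8 and 54.6 TPM in siCTRL and 49.8, 51.6 and 58.6 TPM in siMITF libraries. The log2 change with IFNγ was 1.51 (SE 0.09, limma adjusted p = 8.5e-08) in siCTRL cells and 1.61 (adjusted p = 3.5e-08) in siMITF cells.

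ZC3HAV1 rose by less than a log2 change of 1 in both settings. The levels were 16.4, 19.1 and 17.9 TPM in siCTRL cells and 28.3, 35.0 and 31.4 TPM after IFNγ. In siMITF cells they were 20.3, 23.3 and 19.5 TPM, and 35.2, 32.8 and 35.6 TPM after IFNγ. The libraries with and without IFNγ did not overlap, and the log2 changes were 0.79 (SE 0.10, limma adjusted p = 1.3e-04) and 0.69 (adjusted p = 3.1e-04).

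In the main fit, which did not use the replicate numbers, PARP11 and PARP1 did not pass the test in any of these comparisons. PARP11, a mono-ADP-ribosyltransferase of the nuclear envelope, stayed between 1.21 and 2.68 TPM over all 12 libraries and passed the minimum of 2 TPM through siMITF + IFNγ alone. Its log2 changes with IFNγ were 0.08 (95% interval -0.27 to 0.42) in siCTRL and 0.26 (-0.09 to 0.60) in siMITF cells. PARP1 was the most abundant of the 8 genes in each condition, with 141, 166 and 157 TPM in siCTRL and 141, 162 and 146 TPM in siMITF libraries. With IFNγ it had 108, 160 and 143 TPM in siCTRL and 99.4, 137 and 135 TPM in siMITF libraries. In siMITF cells the IFNγ libraries of PARP1 all lay below the others, as for 28.4% of tested genes, with a log2 change of -0.28 and a limma adjusted p of 0.202, or 0.0143 when the replicate number entered the fit as a block and 0.0453 after median centring. In siCTRL cells the PARP1 libraries overlapped, while 18.1% of tested genes had all IFNγ libraries lower.

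The order of levels among the 8 genes changed with IFNγ. In siCTRL cells without IFNγ, PARP1 (155 ± 12.6 TPM, SD, n = 3) stood first, ahead of PARP12 (19.1 ± 0.677) and ZC3HAV1 (17.8 ± 1.36), whose libraries overlapped. DTX3L (12.5 ± 0.718), PARP9 (10.3 ± 0.582) and PARP14 (6.78 ± 0.760) came next, each clear of the one before, and PARP10 (1.65 ± 0.193) and PARP11 (1.56 ± 0.312) came last and overlapped. With IFNγ in the same cells, PARP1 (137 ± 26.7) and DTX3L (96.7 ± 17.3) overlapped at the top, PARP9 (65.1 ± 7.19), PARP14 (64.8 ± 9.60) and PARP12 (56.1 ± 6.02) overlapped with one another, and ZC3HAV1 (31.6 ± 3.31), PARP10 (14.1 ± 1.73) and PARP11 (1.72 ± 0.449) followed apart. Together the 7 genes other than PARP1 had 0.450 ± 0.0181 times the TPM of PARP1 in siCTRL cells and 2.43 ± 0.198 times with IFNγ. In siMITF cells without IFNγ the order was PARP1, ZC3HAV1, PARP12, DTX3L, PARP14, PARP9, PARP10 and PARP11, and PARP14 and PARP9 were the neighbours whose libraries overlapped. With IFNγ in siMITF cells it was PARP1, DTX3L, PARP14, PARP9, PARP12, ZC3HAV1, PARP10 and PARP11, and again PARP14 and PARP9 overlapped. In siMITF cells the ratios to PARP1 were 0.405 ± 0.00694 and 2.71 ± 0.400.

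Without IFNγ, the head-to-head pair fell with MITF knockdown, and the other 6 genes did not pass the test, of which PARP12 and ZC3HAV1 passed under other scaling. PARP9 fell by 0.83 on the log2(TPM + 1) scale (95% interval -1.05 to -0.61, limma adjusted p = 4.4e-05) and DTX3L fell by 0.65 (-0.91 to -0.40, adjusted p = 8.9e-04). These 2 of 8 genes compare with 13.8% of all tested genes that fell and 21.0% that rose, so calls in either direction were common in these libraries. Neither fall reached a log2 change of 1, which 2.88% of tested genes passed downwards and 3.22% upwards, and the means were 0.522 and 0.606 times those of siCTRL cells. PARP12 (-0.17, adjusted p = 0.162) and ZC3HAV1 (0.23, adjusted p = 0.0961, or 0.0381 with the replicate block) had libraries on separate sides of the controls, as did 22.0% of tested genes on the lower and 33.0% on the higher side. Both passed under quantile normalization and median centring of the libraries, PARP12 with an adjusted p of 0.0156 and 0.0151 and ZC3HAV1 with 0.0488 and 0.0429. ZC3HAV1 also passed after rescaling without mitochondrial genes (0.22, limma adjusted p = 0.0323), and its 95% interval in the main fit was 0.01 to 0.44. The changes of PARP14 (-0.13), PARP10 (0.22), PARP11 (-0.01) and PARP1 (-0.05) had intervals that included 0.

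Under IFNγ, none of the 8 genes passed the test between siMITF and siCTRL cells (limma, 0 at adjusted p under 0.05 and 0 at unadjusted p under 0.05). Among all tested genes 18.4% were higher and 14.7% lower, and 3.12% and 2.57% with a log2 change of at least 1. The siMITF libraries of each of the 8 genes overlapped with the controls, whereas 21.3% of tested genes had them all higher and 17.0% all lower. The log2 differences ran from -0.27 (PARP10, 95% interval -0.55 to 0.01, adjusted p = 0.137) to 0.17 (PARP11, -0.17 to 0.52). PARP10 passed with quantile normalization (-0.28, adjusted p = 0.0119) and median centring (-0.28, adjusted p = 0.0148). PARP9 (0.05, -0.17 to 0.27) and DTX3L (-0.10, -0.36 to 0.16) had differences close to 0, with mean levels 1.03 and 0.924 times those of siCTRL + IFNγ.

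**Figure D2:**
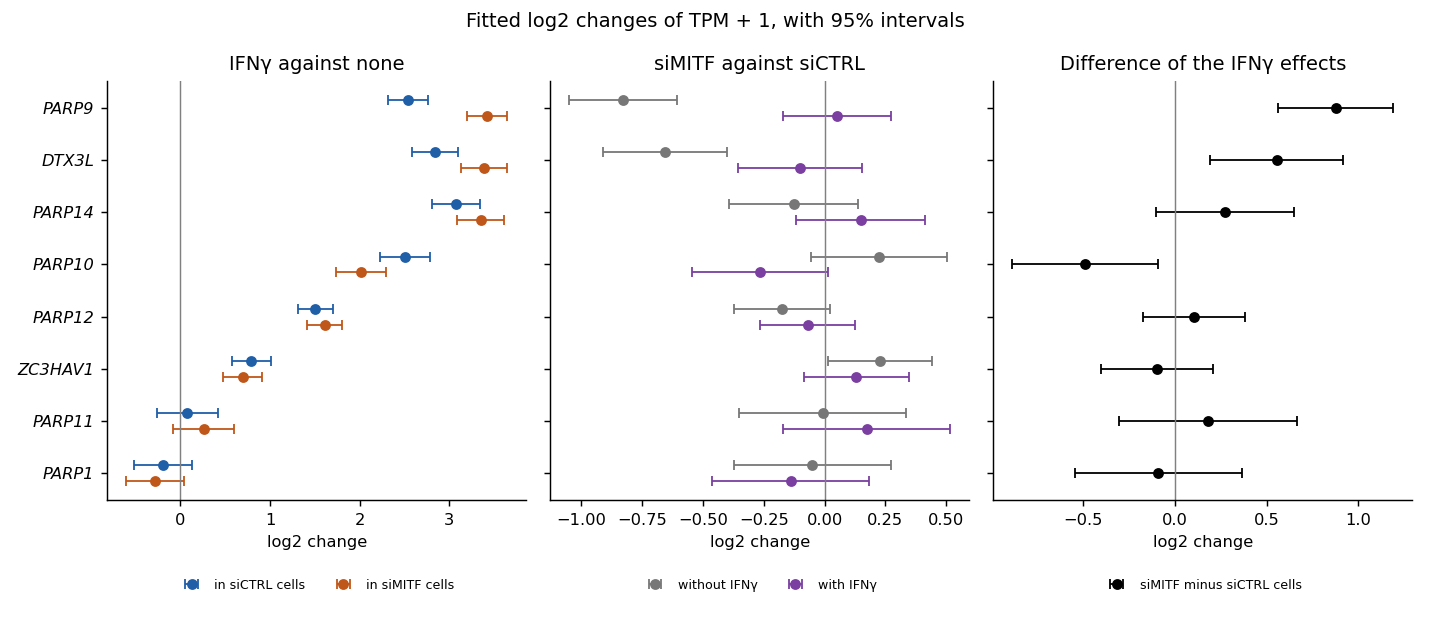
Fitted changes of the 8 genes on the log2(TPM + 1) scale (horizontal axes), with 95% intervals from limma on 12 libraries. The left panel gives the effect of IFNγ in siCTRL and siMITF cells, the middle panel the effect of siMITF without and with IFNγ, and the right panel the difference of the IFNγ effects. PARP9 and DTX3L stand below 0 for siMITF without IFNγ and above 0 in the right panel.

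The IFNγ response of PARP9 was larger on the log2 scale in siMITF than in siCTRL cells. The interaction term was 0.88 (SE 0.14, 95% interval 0.56 to 1.19, limma adjusted p = 0.0104), which makes 1 of 8 genes beside 0.705% of tested genes with a positive and 0.243% with a negative interaction. Over 22 settings it ran from 0.79 to 0.98 with an adjusted p of at most 0.04. DTX3L had an interaction of 0.55 (0.19 to 0.92) with an adjusted p of 0.231, or 0.0274 in the fit with the replicate block. Scaling moved this call too: the adjusted p was 0.00238 after quantile normalization, 0.00285 after median centring and 0.0386 after rescaling without mitochondrial genes, and over all settings it ran up to 0.479. PARP10 had a negative term of -0.49 (-0.89 to -0.09, adjusted p = 0.45), and the intervals of PARP14 (0.27), PARP11 (0.18), PARP12 (0.10), ZC3HAV1 (-0.10) and PARP1 (-0.09) included 0.

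The same data in TPM show where this difference lay. PARP9 gained 54.8 TPM with IFNγ in siCTRL and 61.8 TPM in siMITF cells, gains that are much closer than the 6.31-fold and 12.5-fold ratios because the siMITF cells started lower. Starting from the siCTRL mean and adding both single effects gives 60.2 TPM for PARP9, and the mean with both treatments was 67.2 TPM. For DTX3L the same sum was 91.8 TPM and the measured mean 89.4 TPM, and the gains were 84.2 and 81.8 TPM. On the linear scale DTX3L thus lay below the sum and PARP9 above it. For PARP14 the sum was 64.2 and the measured mean 71.4 TPM. These sums are given without a test.

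PARP9 and DTX3L were also each other's closest match. Across the 12 libraries, DTX3L had the highest Pearson correlation with PARP9 of log2(TPM + 1) values among all tested genes (r = 0.998), and PARP9 the highest with DTX3L. All libraries enter the correlation, and the gap between those with and without IFNγ sets most of it, so it is given as a description. Outside the 8 genes, IRF9 and FBXO6 were among the 3 closest to PARP9 (r from 0.996 to 0.997), and the 3 closest to DTX3L were TRIM21, IRF9 and FBXO6 (also 0.996 to 0.997). IRF9 is the DNA-binding subunit of the type I interferon factor ISGF3, and TRIM21 is an antibody receptor with ubiquitin ligase activity. The closest to PARP14 were DDX60, PSMB8 and IFI44L (r = 0.998), to PARP12 LGALS3BP, C1S and LGMN (0.995 to 0.997) and to PARP10 LGMN, MAF and RIGI (0.994 to 0.996). For ZC3HAV1 they were MOB3C, MOV10 and BCL6 (0.981 to 0.988), and for PARP11 TCN2, ASB7 and ACBD5 (0.853 to 0.920), so PARP11 had no match as close.

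The ratio of PARP9 to DTX3L TPM stayed between 0.632 and 0.847 in all 12 libraries, while PARP9 itself ran from 4.81 to 72.1 TPM. It was 0.801, 0.818 and 0.847 in siCTRL libraries and 0.725, 0.632 and 0.679 with IFNγ. In siMITF cells it was 0.724, 0.740 and 0.657, and 0.772, 0.757 and 0.728 with IFNγ. The siCTRL libraries without IFNγ were thus the highest. An exact two-sided permutation test of the log2 ratio gave a difference of -0.09 between 6 libraries with and 6 without IFNγ (p = 0.214, adjusted over 2 tests 0.429). Between 6 siMITF and 6 siCTRL libraries the difference was -0.03 (p = 0.665, adjusted 0.665, exact permutation). Both tests pooled the libraries over the other treatment and did not use the replicate numbers. The mean ratio moved down with IFNγ in siCTRL cells and up in siMITF cells. The pooled tests thus cannot decide on a change within siCTRL or within siMITF cells.

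Taken by replicate number, the log2 ratio was lower with IFNγ in 3 of 3 siCTRL pairs, with a mean change of -0.28 (from -0.37 to -0.14). It was higher in 3 of 3 siMITF pairs, with a mean change of 0.09 (from 0.03 to 0.15). The difference of 0.37 between these means was not tested. How reads from the 240 bases annotated to both genes were shared between them was not checked.

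Of 9 tested protein-coding genes within 250 kb on chromosome 3, PARP9, DTX3L and PARP14 rose with IFNγ and the other 6 did not. Of these, MIX23 fell by 0.43 on the log2 scale in siCTRL cells (limma adjusted p = 0.00959). FAM162A, WDR5B, KPNA1, HSPBAP1 and SLC49A4 had IFNγ effects from -0.29 to 0.14 in siCTRL cells that did not pass, and none of the 6 passed in siMITF cells, where their effects ran from -0.30 to 0.22. PARP15, another PARP family gene between DTX3L and PARP14, was at 0.184 TPM in siCTRL and 0.215 TPM in siCTRL + IFNγ and was not tested. The start of PARP14 lies 116.5 kb from that of DTX3L. For siMITF without IFNγ, SLC49A4 fell by 0.84 (adjusted p = 2.1e-05), and it also fell by 0.72 under IFNγ (adjusted p = 8.5e-05). MIX23 and FAM162A fell by 0.39 each without IFNγ (adjusted p = 0.00651 and 0.00777), and FAM162A fell by 0.27 under IFNγ (adjusted p = 0.0465). Lower RNA after knockdown without IFNγ was thus not particular to the pair in this region. Over all tested genes, 13.8% fell with siMITF without IFNγ and 14.7% under IFNγ. Under IFNγ, PARP9 (0.05) and DTX3L (-0.10) did not pass, unlike SLC49A4 and FAM162A.

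Of 39 other genes of ADP-ribosylation and NAD synthesis in 6 lists, 31 were tested, and with IFNγ 1 rose and 1 fell in siCTRL cells and 3 rose and 3 fell in siMITF cells. Over all tested genes, 6.80% rose and 6.14% fell in siCTRL cells, and 7.99% rose and 12.2% fell in siMITF cells. With siMITF, 8 rose and 1 fell without IFNγ, and likewise 8 rose and 1 fell with it. The shares of all tested genes in those comparisons were 21.0% and 13.8%, and 18.4% and 14.7%. The list rises with siMITF thus lay somewhat above these shares and the list falls with siMITF below them, which was not tested. No interaction passed, or 1 with the replicate block. These totals depended on the fit. Shares of all tested genes under the other fits are not given here, so those totals cannot be set against a background. The totals of 2 and 6 with IFNγ and of 9 and 9 with siMITF became 5, 11, 15 and 17 with the replicate block, 6, 12, 15 and 15 after quantile normalization and 6, 11, 14 and 16 after median centring. With the compared conditions alone in the fit, they became 0 for IFNγ in siCTRL cells, 14 for siMITF without IFNγ and 1 for siMITF with it. Leaving out 1 library gave 0 (without siCTRL replicate 1) to 4 (without siMITF + IFNγ replicate 1) for IFNγ in siCTRL cells and 4 to 6 for IFNγ in siMITF cells. It gave 7 to 14 (highest without siCTRL + IFNγ replicate 1) for siMITF without IFNγ, and 2 (without siMITF + IFNγ replicate 3) to 13 (without siMITF + IFNγ replicate 1) with IFNγ. The median log2 changes over the lists were -0.03 and 0.01 with IFNγ and 0.10 and 0.14 with siMITF, near those of all tested genes at -0.07, -0.10, 0.06 and 0.03.

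By list, PARP3, TNKS and PARP6 rose with siMITF among 9 tested genes of the other PARP family, both without and with IFNγ, and PARP2, the DNA-break enzyme closest to PARP1, fell with IFNγ in siMITF cells (-0.47, limma adjusted p = 0.00245). Among 2 tested Deltex relatives of DTX3L, DTX2 rose with siMITF without IFNγ (0.66, adjusted p = 0.0023), and DTX4 rose with IFNγ in siMITF cells (0.78, adjusted p = 0.00455) and with siMITF under IFNγ. Among 6 tested genes of ADP-ribose removal, ADPRS, a hydrolase that cuts ADP-ribose from serine, rose with IFNγ in siCTRL (0.33, adjusted p = 0.0216) and siMITF cells (0.50, adjusted p = 0.00109). OARD1, which cleaves ADP-ribose from acidic residues, fell in both (-0.33 and -0.34), and MACROD1 rose with siMITF. Among 4 tested PARP1 partners, XRCC1 and CHD1L rose with siMITF without IFNγ, CHD1L also with it, and XRCC1 fell with IFNγ in siMITF cells. Among 7 tested genes of NAD synthesis, NMNAT1 rose with siMITF in both settings, NAMPT rose and NADSYN1 fell with siMITF under IFNγ, and none passed with IFNγ itself. The genes of this paragraph were named after their values were seen.

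TRIM25, a ubiquitin ligase that serves as cofactor of ZC3HAV1, was the only one of the 31 genes with a called log2 change of at least 1. It had 60.6, 81.1 and 67.1 TPM in siCTRL libraries and 30.9, 40.2 and 31.9 TPM in siMITF libraries. With IFNγ it had 76.4, 128 and 108 TPM in siCTRL and 56.0, 90.3 and 83.1 TPM in siMITF libraries. It rose with IFNγ by 1.11 in siMITF cells (limma adjusted p = 0.00217). Without siMITF + IFNγ replicate 2 that rise was 0.98, under the limit of 1. Without IFNγ it fell with siMITF by 0.997 (adjusted p = 0.00232), just under that limit and so not called. In siCTRL cells the IFNγ effect was 0.55 with an adjusted p of 0.105, or 9.1e-04 with the replicate block, 0.0114 after quantile normalization, 0.0106 after median centring and 0.0441 after rescaling without mitochondrial genes. The siMITF effect under IFNγ was -0.44 with an adjusted p of 0.124, or 0.0019 with the block, 0.0317 after quantile normalization and 0.0187 after median centring. Its interaction was 0.56 with an adjusted p of 0.745, or 0.0464 with the block.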

How the data were processed

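The authors trimmed reads with Trimmomatic 0.39 and quantified them against Ensembl GRCh38 transcripts using kallisto, and deposited 1 table of TPM per gene and library. The Ensembl release and the tool that summed transcripts to genes are not given in the sources used here. The authors tested counts with DESeq2 1.26.0, and those counts were not used here. TPM keep no read depth, so no counting interval is given.

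TPM were transformed as log2(TPM + 1), and limma 3.58.1 (R 4.3.3) was fitted with 1 coefficient per condition to 12773 genes whose mean reached 2 TPM in any condition (intensity trend, two-sided, Benjamini-Hochberg over these genes). A called change needed an adjusted p under 0.05 and an absolute log2 change of at least 1. The script was tested on simulated data. The labels' replicates are separate samples and p-values measure the spread between them. Same-numbered libraries deviated together from their condition means (18 pairs across conditions, r from 0.10 to 0.63 with a median of 0.28). Other pairs had a median of -0.20, a value that centring within each condition ties to that of the same-numbered pairs. The numbers thus pair the libraries, but the main fit did not use this pairing. A replicate block was fitted as an alternative. Gene positions are from GENCODE 44 and promoter windows from RefSeq. Named genes were the 8 genes in every condition, list genes called changed or with an interaction, and the 3 most correlated genes of each of the 7, of which 1 is not reported here. Other list genes with an adjusted p under 0.05 were named after their values were seen. The members and lists were chosen with earlier results of these data known. Tables and figures used Python 3.11.15, pandas 2.3.3, scipy 1.17.1 and matplotlib 3.10.9.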

Additional observations from a re-analysis of the deposited data

Results flagged for a closer look

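The IFNγ effect on PARP9 differed between siMITF and siCTRL cells, with an interaction of 0.88 on the log2(TPM + 1) scale (limma adjusted p = 0.0104). All 3 siMITF + IFNγ libraries lay above all 3 siMITF libraries and the same held for siCTRL cells, so the difference is one of size and not of direction. In TPM the gains were 61.8 and 54.8.

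The log2 ratio of PARP9 to DTX3L moved in opposite directions with IFNγ, down in 3 of 3 siCTRL pairs and up in 3 of 3 siMITF pairs. The means differed by 0.37, and this difference was not tested.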

How the results depend on the processing

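The rises of 6 genes with IFNγ held in every alternative, as did the falls of PARP9 and DTX3L with siMITF without IFNγ and the interaction of PARP9. With quantile normalization or median centring, siMITF without IFNγ passed for 4 genes in place of 2 (PARP12 and ZC3HAV1 added), siMITF with IFNγ for 1 in place of 0 (PARP10), and the interaction for 2 in place of 1 (DTX3L added). The interaction also passed for 2 genes after rescaling without mitochondrial genes and with the replicate block, where DTX3L had an adjusted p of 0.0274. ZC3HAV1 with siMITF without IFNγ passed under the same rescaling and with the block as well. Beside the calls given with their results (DTX3L, PARP1, ZC3HAV1 and TRIM25), the block changed no call on the 8 genes or TRIM25. Shares of all tested genes under these settings are not given here, and the cause of these moves was not tested. Directions turned only for effects that did not pass. PARP11 with IFNγ in siCTRL cells went to -0.078 under quantile normalization and ran from -0.017 to 0.22 in 11 fits that each left out 1 library. Such fits gave -0.10 to 0.075 for PARP11 and -0.11 to 0.0017 for PARP1 with siMITF without IFNγ. With siMITF under IFNγ they gave -0.033 to 0.12 for PARP9, -0.23 to 0.026 for DTX3L, -0.14 to 0.012 for PARP12 and -0.30 to 0.0093 for PARP1. They gave -0.25 to 0.060 for the PARP1 interaction and -0.082 to 0.0023 for the siMITF difference in the PARP9 to DTX3L ratio. PARP11 was not tested with a mean of at least 5 TPM required or, for missing the minimum of 2 TPM, without siMITF + IFNγ replicate 3 and in fits of compared conditions that did not include siMITF + IFNγ. Depth is unknown, so no detection limit can be given for PARP11.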
